A study of Sus scrofa with 18 samples.

Results

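The regions described here carried the promoter mark H3K4me3 in circular muscle of cyclic gilts (CD15M_CM) and touched no H3K4me3 peak of either pregnant muscle layer. They were selected on measured values, from the peaks of the CD15M_CM list on chromosomes 1 to 18 or X. A peak was taken if its fold enrichment, as deposited by the authors, was at least 4. It also had to share not even 1 bp with an H3K4me3 peak of pregnant circular muscle (GD15M_CM) or pregnant longitudinal muscle (GD15M_LM). This gave 1219 cyclic-only regions out of 21059 CD15M_CM peaks of that strength, or 5.79% (95% Wilson interval 5.48 to 6.11%). The CD15M_CM list held 36331 H3K4me3 peaks in all, and the 6 lists of the series held 320764 peaks. The other 19840 peaks of the same strength overlapped a pregnant peak and are called shared regions below.

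The series profiled H3K4me3 and H3K27ac in pig myometrium on day 15 by CUT&Tag, in which antibody-bound chromatin is cut by a transposase tethered to the antibody. CD15M_CM came from unmated gilts at day 15 of their estrous cycle, whereas GD15M_CM and GD15M_LM came from naturally mated gilts on day 15 of pregnancy. All gilts were Yorkshire, and in each group the muscle layer was dissected by scalpel from the mesometrial side of frozen uterus after the endometrium had been removed. Each group had 2 gilts, and each mark and the IgG control were profiled in both, which gave 18 libraries. Longitudinal muscle of cyclic gilts was not among these samples, so a difference between CD15M_CM and GD15M_LM mixes layer with pregnancy. In tissue profiles of this kind, fewer cells of a type and less mark per cell cannot be told apart.

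H3K4me3 is deposited around the start sites of active or poised genes by SET1 and MLL methyltransferases, whereas H3K27ac is laid down by p300 and CBP at active promoters and enhancers. A strong H3K4me3 peak usually covers a promoter with its first nucleosomes, and weaker H3K4me3 can be found at enhancers and along the edges of promoter domains. The circular layer is the inner layer of the myometrium, whose contractions help to space the conceptuses along the uterine horns before implantation.

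The authors pooled both gilts of a group before peaks were called, so each region has 1 value per list and no spread between gilts, and these lists allow no test between groups. The intervals given below cover counting error over regions only. Sequencing depth is not stated in the peak lists, and the read numbers that the paper gives in its supplement were not used here. The weakest peaks admitted were alike in the 3 H3K4me3 lists, with −log10 p of 2.98 in CD15M_CM, 3.04 in GD15M_CM and 3.01 in GD15M_LM. A pregnant peak of fold enrichment far under 4 therefore sufficed to remove a cyclic region, the weakest having fold enrichments of 1.45 in GD15M_CM and 1.904 in GD15M_LM. Of 20 genes of the contractile apparatus, 19 had an H3K4me3 peak within 3 kb of an end in CD15M_CM, 18 in GD15M_CM and 19 in GD15M_LM. Such a peak was common, at 72.6%, 70.8% and 71.7% of all protein-coding genes in the same order, so these counts do not single out smooth muscle. Genes of fibroblasts and pericytes had it at 15 of 16 in each group. Genes of the uterine epithelium had it at 17, 17 and 15 of 19 genes in the same order, with median fold enrichments of 13.8, 13.7 and 6.73. The part of other cell types in the results below was not tested.

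Most cyclic-only regions were weak and short. Their median fold enrichment was 4.41 (quartiles 4.16 and 4.75, range 4.00 to 17.3), against 14.0 for the shared regions, whose highest value was 59.1. Of the 1219 regions, 993 (81.5%) had a fold enrichment of 4 to 5, 160 lay between 5 and 6, 44 between 6 and 8, and 22 (1.80%) reached 8 or more. Their median length was 360 bp (200 to 7036 bp), compared with 2074 bp for the shared regions. Length rose with strength, from a median of 343 bp in the weakest class to 1712 bp in the strongest. Many faint regions had exactly the same fold enrichment: the commonest value, 4.16, was found in 122 regions, and 20 values held by at least 10 regions each covered 570 regions (46.8%). At the lower limit, the region nearest *TCF3* (4.005, −log10 p 10.2) and those nearest *SPATA24* and LOC102159819 (both 4.005, −log10 p 6.28) were just inside, whereas cyclic peaks nearest *ASNA1* (3.996), *PCBP4* (3.995) and LOC100738436 (3.995) were just outside. Without a limit on fold enrichment, 7286 CD15M_CM peaks touched no pregnant peak.

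The same rule applied to the pregnant lists found 1114 of 20385 peaks in GD15M_CM alone (5.46%, interval 5.16 to 5.79%) and 1663 of 21430 in GD15M_LM alone (7.76%, 7.41 to 8.13%). The intervals of CD15M_CM and GD15M_CM overlapped, and both lay under that of GD15M_LM. The comparison lists were not alike, however. Each circular list was set against the other circular list and GD15M_LM, whereas GD15M_LM was set against both circular lists and no other longitudinal one. Strong regions were few in each: 22 cyclic-only regions reached a fold enrichment of 8, compared with 7 regions of GD15M_CM alone and 23 of GD15M_LM alone.

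Many cyclic-only regions lay beside H3K4me3 that pregnant muscle carried as well. The median distance to the nearest pregnant H3K4me3 peak was 1061 bp (quartiles 394.5 and 3942 bp). A pregnant peak was within 1 kb of 588 regions (48.2%, 45.4 to 51.0%) and within 3 kb of 866 (71.0%). Of the 588 regions, 375 had a peak of both pregnant lists within 1 kb, 120 of GD15M_CM alone and 93 of GD15M_LM alone. Another CD15M_CM peak was within 1 kb of 607 regions (49.8%), and 502 (41.2%) had both a cyclic and a pregnant neighbour. The strongest neighbour of each list within 1 kb of a region was then taken. Its median fold enrichment was 14.4 for the cyclic peaks, 11.6 for the GD15M_CM peaks and 16.0 for the GD15M_LM peaks. The lower quartiles were 3.91, 4.11 and 4.66, so some of these neighbours were as faint as the cyclic-only regions. Their median lengths were 1989, 1709 and 2126.5 bp. The strongest neighbour exceeded the cyclic-only region in 68.4% of the cyclic, 69.9% of the GD15M_CM and 78.8% of the GD15M_LM cases.

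The remaining regions were more isolated. A total of 427 lay 1 to 10 kb from the nearest pregnant peak and 204 (16.7%, 14.7 to 18.9%) lay over 10 kb away, of which 38 were over 100 kb away. The 204 distant regions had a median fold enrichment of 4.64 and a median length of 434.5 bp, compared with 4.38 and 352 bp for the 588 regions within 1 kb. For regions found in GD15M_CM alone, 54.4% (51.5 to 57.3%) lay within 1 kb of a peak of another list, and for GD15M_LM alone 34.4% (32.2 to 36.7%).

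**Figure D1:**
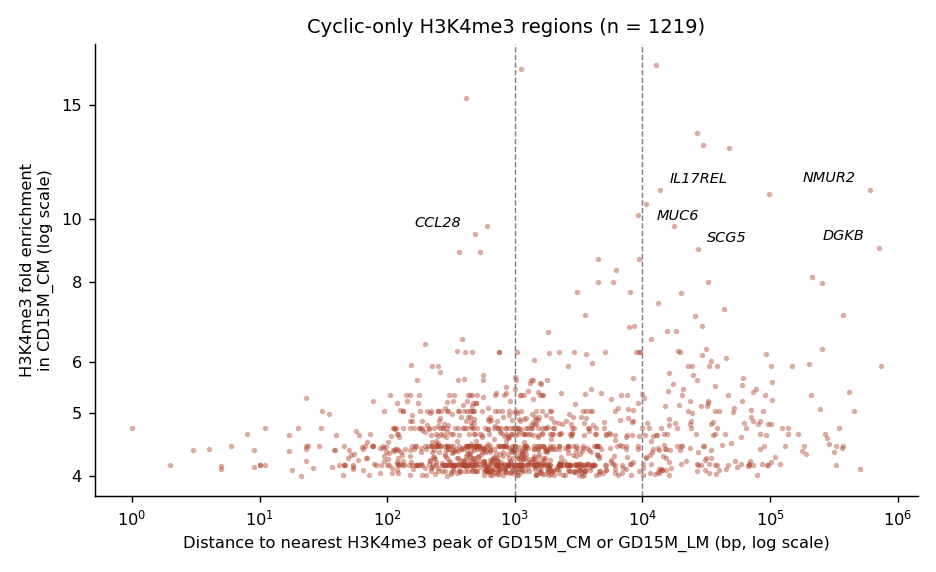
Fold enrichment of each of the 1219 cyclic-only H3K4me3 regions in CD15M_CM (vertical, log scale) against its distance to the nearest H3K4me3 peak of GD15M_CM or GD15M_LM (horizontal, bp, log scale), with 1 point per region and dashed lines at 1 and 10 kb. Most points lie under a fold enrichment of 5 and within 10 kb, and the rows of points at equal height are repeated values. The 6 named regions carry the name of their nearest gene.

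Cyclic-only regions were found near gene ends less often than the shared regions. Of the 1219 regions, 607 (49.8%, 47.0 to 52.6%) were within 3 kb of an end of a RefSeq gene, 413 (33.9%, 31.3 to 36.6%) lay in a gene body away from its ends, and 199 (16.3%, 14.4 to 18.5%) lay outside genes. Strand was not used, so an end can be the start or the end of transcription. The corresponding shares of the shared regions were 76.5%, 17.3% and 6.27%, and 74.9% of all 21059 peaks were near an end. Only 206 cyclic-only regions (16.9%) were within 1 kb of an end and 39 (3.20%) covered one, compared with 64.3% and 56.2% of the shared regions. Their median distance to an end was 3015 bp.

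The difference was smaller at fold enrichments of 4 to 5 and 5 to 6 than at 6 to 8 and at 8 or more. Length was not matched in these classes: at fold enrichment 4 to 5 its median was 343 bp in cyclic-only and 588 bp in shared regions. Among peaks of fold enrichment 4 to 5, 50.1% of the cyclic-only regions (46.9 to 53.2%) and 58.2% of the shared regions (56.5 to 59.8%) were within 3 kb of an end, and regions outside genes made up 16.3% (14.1 to 18.7%) and 10.2% (9.18 to 11.2%). At fold enrichment 5 to 6 the shares near an end were 51.9% (44.2 to 59.5%) and 57.3% (54.9 to 59.6%), with overlapping intervals. At 6 to 8 they were 38.6% (25.7 to 53.4%) and 60.1% (57.7 to 62.5%), and at 8 or more 45.5% (26.9 to 65.3%) and 85.6% (85.0 to 86.2%). The share also varied with proximity to a pregnant peak: 64.1% of the regions within 1 kb of one were near a gene end, compared with 35.8% at 1 to 10 kb and 37.7% (31.4 to 44.6%) over 10 kb away. However, the distant regions covered a gene end more often than those within 1 kb of a pregnant peak, at 9.80% (6.44 to 14.7%) against 2.04% (1.17 to 3.53%). The gene nearest to the 607 regions was protein-coding in 495 cases, a lncRNA in 82, a pseudogene in 14 and a tRNA in 11.

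**Figure D2:**
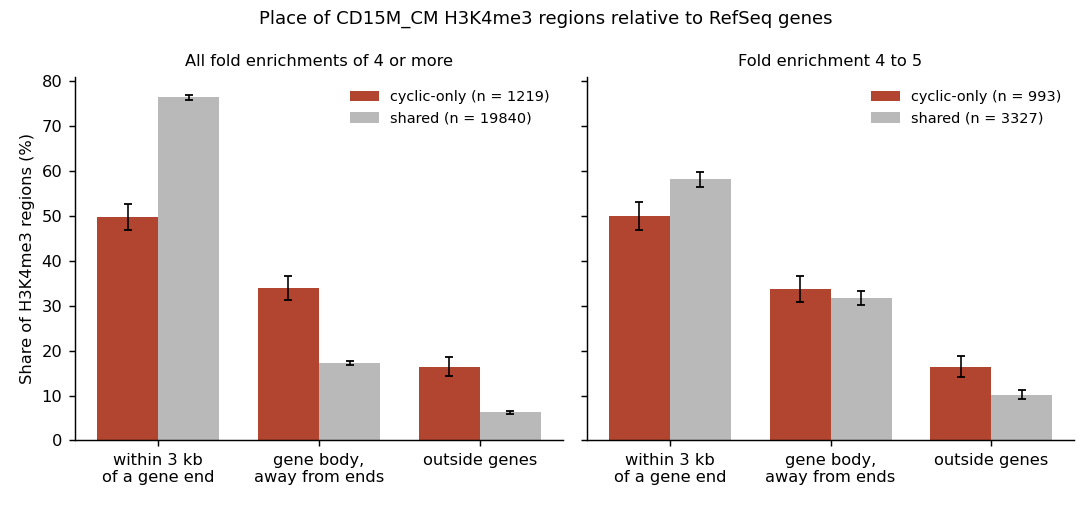
Share of CD15M_CM H3K4me3 regions (%, with 95% Wilson intervals) by place relative to RefSeq genes, for cyclic-only and shared regions, over all fold enrichments of at least 4 and within fold enrichment 4 to 5. The gap of 49.8% against 76.5% near gene ends is 50.1% against 58.2% within fold enrichment 4 to 5.

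The 6 strongest cyclic-only regions all lay over 3 kb from an annotated gene end. The highest fold enrichment, 17.3, was found at chr18:12140004-12143460 (coordinates on Sscrofa11.1), in the body of the diacylglycerol kinase gene *DGKI* and 15437 bp from the nearest gene end, that of the lncRNA LOC110257584. This 3457 bp region was also under H3K27ac in every group, with fold enrichments of 6.06 in CD15M_CM, 5.69 in GD15M_CM and 4.17 in GD15M_LM. The next, at chr13:187466231-187467896 (17.1) and chrX:45824342-45825040 (15.4), lay outside genes at 1119 and 414 bp from a pregnant peak and had no H3K27ac in any list. A region of 13.6 stood 26591 bp from *FCGR2B*, which encodes an inhibitory Fc receptor of B cells and macrophages. It was followed by regions nearest LOC100525835 (13.0) and the pseudogene LOC100739258 (12.9). The regions nearest the lncRNAs LOC106504492 (10.9) and LOC110256402 (9.77) were also among the 20 strongest. The LOC106504492 region lay outside genes and had H3K27ac of 2.73 in CD15M_CM and 4.36 in GD15M_CM. The LOC110256402 region had no H3K27ac in any list. Of the 20 strongest regions, those nearest *FNBP4* (10.1), *OGDH* (9.77), *CCL28* (9.47) and *DGKB* (9.03) lay inside the gene away from its ends. *OGDH* encodes a subunit of the 2-oxoglutarate dehydrogenase of the citric acid cycle, *CCL28* a chemokine of mucosal epithelia, and *DGKB* a diacylglycerol kinase. The *DGKB* region was 715346 bp from the nearest pregnant peak and carried H3K27ac in CD15M_CM alone (3.94). Those of *OGDH* and *CCL28* were 609 and 490 bp away from a GD15M_CM peak. At *OGDH* H3K27ac was listed in GD15M_CM alone (3.21), and at *CCL28* in no group. For *FNBP4* and LOC100525835 it was slightly higher in GD15M_CM (3.97 and 3.95) than in CD15M_CM (3.69 and 3.76). Which circular muscle had the higher H3K27ac thus differed among the 20 strongest regions.

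A smaller group of strong regions covered or adjoined the end of a protein-coding gene. *NMUR2*, which encodes a receptor for the smooth-muscle-contracting peptide neuromedin U, was covered at an end by a 3577 bp region at chr16:70659512-70663088 with a fold enrichment of 11.1. The nearest H3K4me3 peak of pregnant muscle was 609541 bp away, and the nearest other peak of CD15M_CM was 611404 bp away. No H3K27ac peak of any group overlapped it, and none was found within 15 kb of its centre. *MUC6*, a gel-forming mucin gene, held the longest cyclic-only region, 7036 bp at chr2:651293-658328, with a fold enrichment of 10.5. Weak H3K27ac overlapped the *MUC6* region in all groups, with highest fold enrichments of 3.13 in CD15M_CM, 2.47 in GD15M_CM and 2.75 in GD15M_LM. *SCG5*, which encodes the chaperone of a prohormone convertase, had a region of 604 bp (8.97) over an end at chr1:136525789-136526392. Here H3K27ac was listed in both circular muscles, at 4.54 in CD15M_CM and 3.32 in GD15M_CM, and not in GD15M_LM. Among the top 20 were also *SORL1* (8.68), an endosomal sorting receptor gene, and *GUCY2D* (8.68), a guanylate cyclase gene of the retina. The *GUCY2D* region had H3K27ac in CD15M_CM (4.47) and in neither pregnant layer, while the *SORL1* region had it in GD15M_CM alone (3.38). The *GUCY2D* region also overlapped *CNTROB*, which had H3K4me3 within 3 kb of an end in CD15M_CM (23.1), GD15M_CM (16.3) and GD15M_LM (15.3). From this region the nearest pregnant H3K4me3 peak was 9335 bp away.

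Other strong regions lay near genes that carried pregnant H3K4me3 at an end. The 3924 bp region inside *IL17REL*, a gene related to the interleukin 17 receptors, began 27 bp from an end and had a fold enrichment of 11.1. The nearest pregnant peak was 13805 bp away, near the other end of *IL17REL*, with fold enrichments of 3.17 in GD15M_CM and 3.91 in GD15M_LM. H3K27ac over the *IL17REL* region was 3.05 in CD15M_CM, 3.75 in GD15M_CM and 2.77 in GD15M_LM. The region near *TMEM100* (8.88) was 532 bp from a pregnant peak, and that near the cadherin gene *CDH12* (8.88) was 366 bp from one. H3K27ac over the *TMEM100* region was 4.20 in CD15M_CM and 2.57 in GD15M_CM, and none was listed over the *CDH12* region. At *CDH12* the main H3K4me3 peak had fold enrichments of 16.7 in CD15M_CM, 5.39 in GD15M_CM and 9.12 in GD15M_LM. The 3072 bp region near *EAF1* (6.70), among the 5 longest, lay 789 bp outside an end of the gene and 15493 bp from the nearest pregnant peak. The other end of *EAF1* was marked in every group (29.2 in CD15M_CM, 17.4 in GD15M_CM and 28.4 in GD15M_LM). H3K27ac over the 3072 bp region was higher in GD15M_CM (4.55) than in CD15M_CM (3.24).

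**Figure D3:**
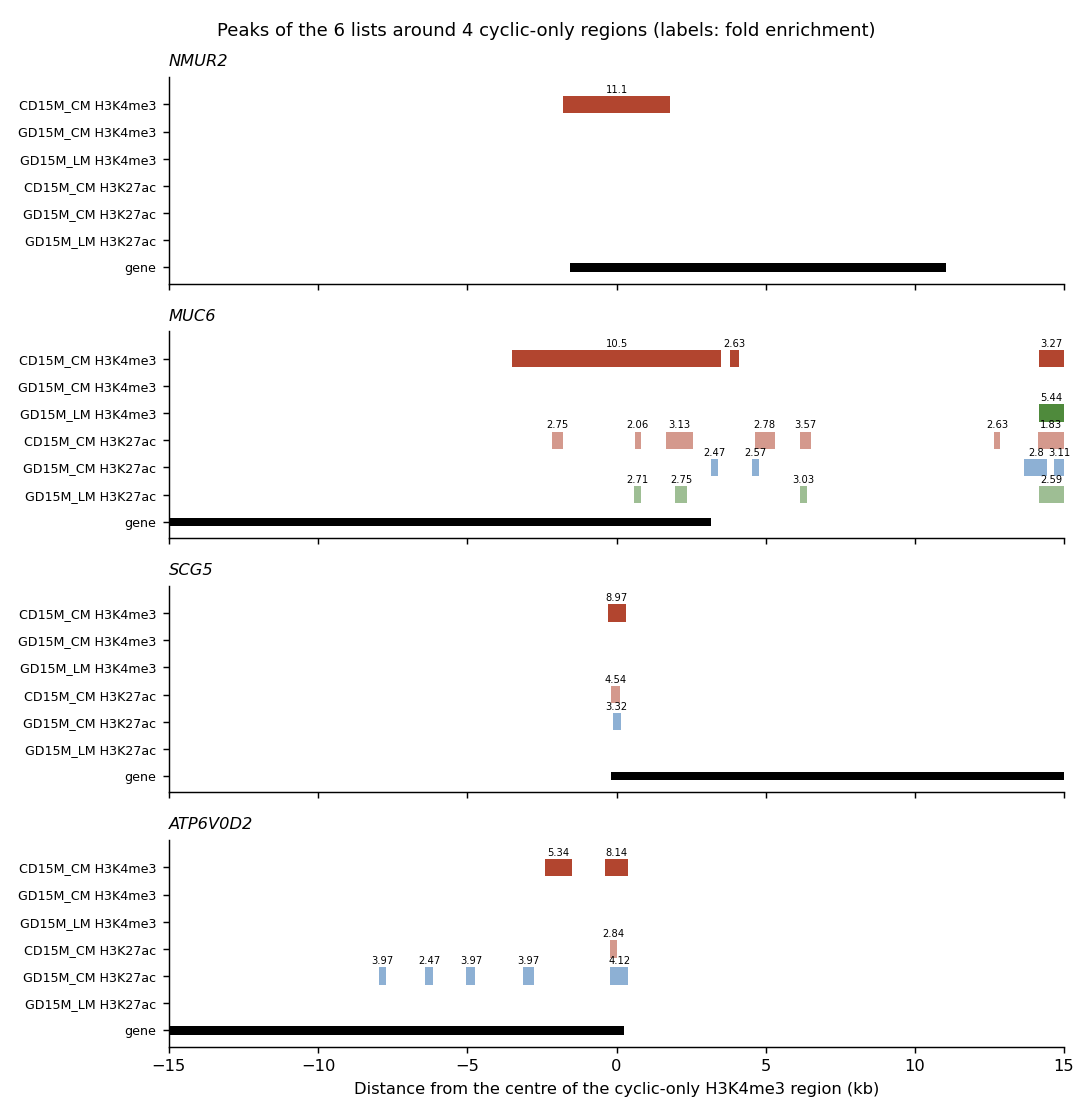
Peaks of the 6 lists around the 4 strongest cyclic-only regions that cover an end of a protein-coding gene with no pregnant H3K4me3 peak over the gene (*NMUR2*, *MUC6*, *SCG5* and *ATP6V0D2*), by distance from the centre of the region (kb); numbers above the boxes are fold enrichments and the black bar is the gene, cut at 15 kb on both sides. At *NMUR2* the only peak is the cyclic H3K4me3 region of 11.1, whereas at the other genes H3K27ac of CD15M_CM and GD15M_CM overlaps the cyclic H3K4me3 region.

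Counted by gene, 771 of 28073 RefSeq genes (2.75%) had a cyclic-only region within 3 kb of an end. In comparison, 59.3% of genes had any H3K4me3 peak of CD15M_CM there, 57.6% a peak of GD15M_CM and 58.5% a peak of GD15M_LM. Most of the 771 genes, 677, also had a pregnant H3K4me3 peak at an end. The remaining 94 genes (0.335% of all genes) had none: 54 were protein-coding, 19 lncRNAs, 13 tRNAs, 6 pseudogenes, 1 a miRNA and 1 an unclassified RNA. At 77 of the 94 the cyclic-only region was the sole H3K4me3 within 3 kb of an end, and at 84 no pregnant peak was found over the whole gene either. Here the lack of pregnant H3K4me3 is what the selection asked for and not a result.

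Besides the genes named by rank, the following were picked from the 94 after their values were seen, as the strongest remaining protein-coding genes. They were *ATP6V0D2* (8.14), a subunit gene of the vacuolar proton pump, *RIMS1* (7.96), which encodes a scaffold of presynaptic active zones, *RSAD1* (7.70), *TRPV6* (6.83), an epithelial calcium channel gene, and *IRS4* (6.30), an adaptor gene of insulin signalling. The *ATP6V0D2* end held a second cyclic-only region (5.34) and had H3K27ac in both circular muscles, with 2.84 in CD15M_CM and 4.12 in GD15M_CM. At *RIMS1* and *RSAD1* H3K27ac was listed near an end in CD15M_CM alone (3.51 and 3.42). At *TRPV6* it was about equal in both circular muscles (2.81 in each), and at *IRS4* it was listed in none. The strongest of these genes thus differed in whether acetylation accompanied the cyclic H3K4me3.

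H3K27ac, whose peaks were not used in the selection, was less frequent at the 94 genes than at genes with pregnant H3K4me3. It was found within 3 kb of an end at 42 of the 94 genes (44.7%, 35.0 to 54.7%) in CD15M_CM, at 32 (34.0%, 25.3 to 44.1%) in GD15M_CM and at 21 (22.3%, 15.1 to 31.8%) in GD15M_LM. Of all genes, 61.3% had H3K27ac near an end in CD15M_CM, 59.6% in GD15M_CM and 57.8% in GD15M_LM. The 677 genes with a pregnant peak had it in 96.3%, 95.4% and 93.6% of cases, and the 10920 genes without H3K4me3 in any list in 12.5%, 11.1% and 7.58%. The 94 genes therefore lay between genes without H3K4me3 and genes with a pregnant peak, and the CD15M_CM and GD15M_CM intervals overlapped.

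Genes of the chosen pathway and cell type lists did not have a cyclic-only region more often than other genes. Over the 22 lists, 12 of 507 placed genes (2.37%) had one near an end, against 2.75% of all genes and 3.19% of protein-coding genes. Of the 12 genes, 7 had no pregnant peak. None was found at the 20 genes of smooth muscle contraction, the 36 voltage-gated and ligand-gated ion channel genes, the 34 extracellular matrix genes, the 20 steroid receptor and steroid metabolism genes or the 15 prostaglandin genes of those lists. At the contraction genes the H3K4me3 was present in all groups, with median fold enrichments of 21.6 in CD15M_CM, 13.2 in GD15M_CM and 24.9 in GD15M_LM. Of the 26 receptors for uterotonins and neuropeptides, *NMUR2* alone had a region. Among the homeobox, FOX, SOX and related factors, *SOX9* (5.08), whose product acts in cartilage, testis and epithelial progenitors, had a region near an end, 247519 bp from the nearest pregnant peak and without H3K27ac in any list. Of the 47 ligands and antagonists of the WNT, BMP, FGF and TGF-beta pathways, *FGF14* (4.44) and *FGF1* (4.18) had regions. The *FGF14* region was 4386 bp from a pregnant peak within the gene. *FGF1*, a secreted growth factor gene, had H3K27ac over the region in all groups, and it was lower in CD15M_CM (2.81) than in GD15M_CM (4.77) or GD15M_LM (4.10). The salivary lipocalin gene *SAL1* had a region of 5.09 without H3K27ac.

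Over the 11 lists of cell type markers, 3 of 172 genes (1.74%) had a cyclic-only region, against 2.75% of all genes and 3.19% of protein-coding genes. None was found at the marker genes of uterine epithelium (0 of 19), endothelium (0 of 16), T and NK cells (0 of 19), macrophages, granulocytes and mast cells (0 of 21), or fibroblasts and pericytes (0 of 16). The region near the plasma cell gene *MZB1* (4.09) lay 368 bp from a pregnant peak, and H3K4me3 within 3 kb of an end of *MZB1* reached 24.9 in CD15M_CM, 14.2 in GD15M_CM and 11.9 in GD15M_LM. The region inside the slow skeletal troponin gene *TNNT1* (5.26) was 2252 bp from an end and 5660 bp from the nearest pregnant peak, and the strong H3K4me3 of *TNNT1* (25.6, 14.4 and 24.7 in the same order) was at the other end of the gene. The antiviral oligoadenylate synthetase genes *OAS1* and *OAS2* shared 1 region of 4.08 between them, 760 bp from a pregnant peak, beside peaks of 24.6 in CD15M_CM and 18.3 in GD15M_CM. In contrast, *NMUR2*, *SOX9*, *FGF1*, *FGF14* and *SAL1* were listed genes at which the cyclic-only region had no pregnant counterpart within 3 kb of an end.

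H3K27ac was profiled with another antibody in the same groups and was not used to select the regions. Both marks of a group shared its gilts and its IgG control, so H3K27ac is not an independent measure of these regions. An H3K27ac peak of CD15M_CM overlapped 502 of the 1219 cyclic-only regions (41.2%, 38.5 to 44.0%). Fewer were overlapped by GD15M_CM (391, 32.1%, 29.5 to 34.7%) and by GD15M_LM (206, 16.9%, 14.9 to 19.1%). Of all 21059 peaks of at least 4, 83.6% were overlapped in CD15M_CM, 81.3% in GD15M_CM and 76.5% in GD15M_LM. No H3K27ac of any group was found over 639 regions (52.4%), compared with 9.72% of the shared regions. The 3 H3K27ac lists differed in length (82037, 79877 and 57010 peaks), and with the 57010 most significant peaks of each the shares were 33.7%, 23.9% and 16.9%.

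The gap between cyclic-only and shared regions was smaller among faint peaks than over all peaks. The faint cyclic-only regions were also shorter than the faint shared ones (medians 343 and 588 bp), and the effect of length was not tested. Within fold enrichment 4 to 5, H3K27ac overlapped 40.8% of the cyclic-only regions (37.8 to 43.9%) and 55.6% of the shared regions (53.9 to 57.3%) in CD15M_CM, 31.3% (28.5 to 34.3%) and 54.6% (52.9 to 56.3%) in GD15M_CM, and 16.8% (14.6 to 19.3%) and 40.8% (39.1 to 42.5%) in GD15M_LM. The separation was thus smaller in the list of the same muscle than in either pregnant list. In the 22 strongest regions, of fold enrichment 8 or more, 12 were overlapped in CD15M_CM, 11 in GD15M_CM and 3 in GD15M_LM, whereas over 95% of shared regions of that strength were (97.6%, 96.0% and 95.5%). H3K27ac in CD15M_CM was also less common over regions within 1 kb of a pregnant H3K4me3 peak (30.3%) than over regions 1 to 10 kb (49.6%) or over 10 kb away (54.9%). By place, it overlapped 28.8% of the regions near a gene end, 54.7% of those in gene bodies and 50.8% of those outside genes.

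**Figure D4:**
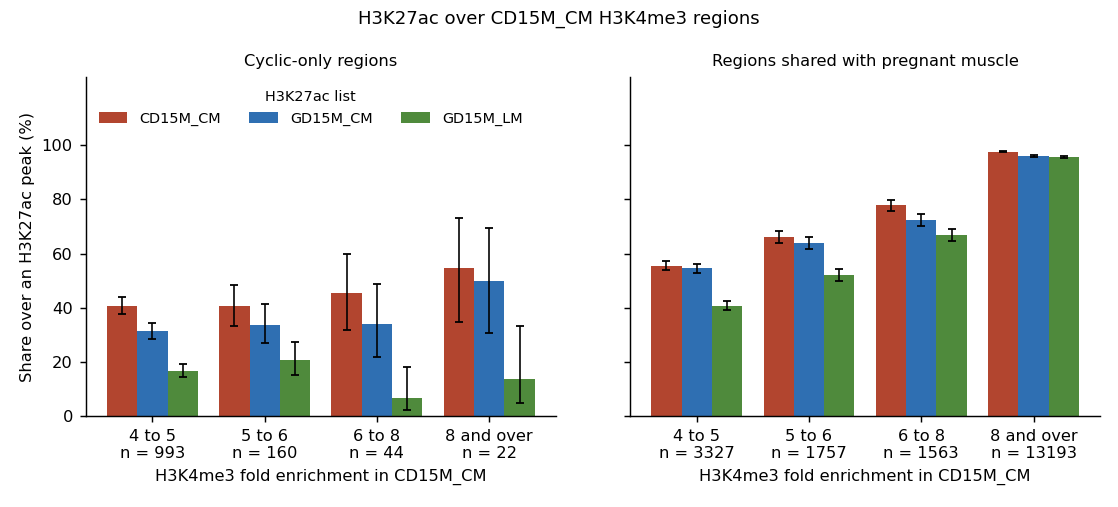
Share of CD15M_CM H3K4me3 regions overlapped by an H3K27ac peak of each group (%, with 95% Wilson intervals) by class of H3K4me3 fold enrichment, for cyclic-only and shared regions. Shares rise with strength to over 95% in the shared regions, and in the cyclic-only regions they stay between 40.6% and 54.5% for CD15M_CM with wide intervals in the classes of 44 and 22 regions.

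Between the circular muscles, H3K27ac over the cyclic-only regions leaned toward the cyclic list. It was found in CD15M_CM and not in GD15M_CM at 185 regions (15.2%, 13.3 to 17.3%) and the other way around at 74 (6.07%, 4.86 to 7.55%). Among all 21059 peaks these shares were 5.84% and 3.58%, and among shared regions of fold enrichment 4 to 5 they were 10.8% and 9.83%. Most of the 185 and 74 cyclic-only regions were faint, with 153 and 59 at fold enrichment 4 to 5. The counts were 19 and 8 at 5 to 6, 10 and 5 at 6 to 8, and 3 and 2 at 8 or more. In each class from 5 upward the intervals of the corresponding shares overlapped. Where both lists held a peak, at 317 regions, the H3K27ac peak ranked higher within CD15M_CM than within GD15M_CM at 221 (69.7%, 64.4 to 74.5%). The median percentile within the list was 76.9 in CD15M_CM and 58.5 in GD15M_CM, at median fold enrichments of 4.41 and 3.71. The shared regions of fold enrichment 4 to 5 were nearly balanced in this respect (53.0%, 50.4 to 55.5%), as were all shared regions (49.7%). The paper itself compared these groups and found far fewer differential regions for H3K27ac than for H3K4me3. The lean of the pooled lists was not tested between gilts.

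The mirror-image regions of GD15M_CM leaned the opposite way. Over the 1114 H3K4me3 regions found in GD15M_CM alone, H3K27ac was listed in 38.3% (35.5 to 41.2%) for GD15M_CM and 17.2% (15.1 to 19.6%) for CD15M_CM, and where both lists held a peak CD15M_CM ranked higher at 39 of 170 (22.9%, 17.3 to 29.8%). H3K27ac of pregnant circular muscle thus overlapped the cyclic-only regions more often (32.1%) than H3K27ac of cyclic muscle overlapped the regions of GD15M_CM alone. The 1663 regions of GD15M_LM alone differed from both, as CD15M_CM overlapped 55.2% of them and GD15M_LM 54.5%. The same libraries were used for every one of these sets, so that they are not independent of each other.

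**Figure D5:**
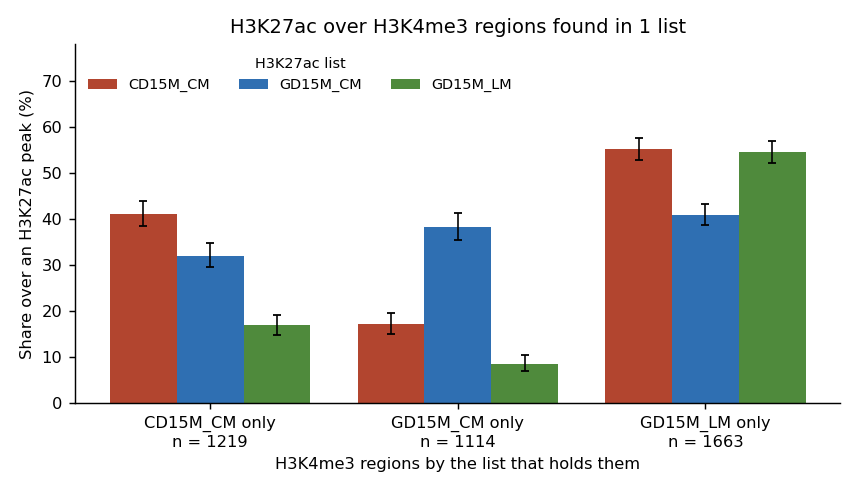
Share of H3K4me3 regions found in 1 list only that an H3K27ac peak of each group overlapped (%, with 95% Wilson intervals), for CD15M_CM, GD15M_CM and GD15M_LM. Regions of CD15M_CM alone have their highest share in CD15M_CM (41.2%), those of GD15M_CM alone in GD15M_CM (38.3%), and those of GD15M_LM alone have about equal shares in GD15M_LM (54.5%) and CD15M_CM (55.2%).

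The cyclic-only regions with the strongest H3K27ac in CD15M_CM were themselves weak in H3K4me3 and mostly lay in gene bodies. The highest H3K27ac fold enrichment, 10.0, was at a region of 453 bp within *MLLT3*, a gene of the super elongation complex, whose H3K4me3 fold enrichment was 4.64. H3K27ac was lower there in the pregnant groups, at 3.82 in GD15M_CM and 5.68 in GD15M_LM. A region within the chaperone gene *DNAJC18* had H3K27ac of 8.73 in CD15M_CM, 4.82 in GD15M_CM and none in GD15M_LM. Regions near *AUH* (8.56, 6.61 and 6.15) and within *PTK7* (8.05, 6.79 and 6.23), which encodes a pseudokinase of planar polarity signalling, had H3K27ac in all 3 groups. The same held for *FBXO32* (8.43, 4.46 and 3.55), a muscle ubiquitin ligase gene, and for 2 neighbouring regions within *ZNRF3* (7.88, 6.50 and 4.92), whose product removes WNT receptors from the cell surface. The region within *KMT5B*, a histone H4 methyltransferase gene, had 8.16 in CD15M_CM, 2.67 in GD15M_CM and none in GD15M_LM. In each of these 8 regions the fold enrichment was highest in CD15M_CM, which is the value they were ranked by.

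Cyclic-only regions were spread over all chromosomes. The share of CD15M_CM peaks that were cyclic-only ranged from 3.19% on chromosome X (21 of 659, 2.09 to 4.82%) to 8.63% on chromosome 12 (131 of 1518, 7.32 to 10.1%), and the largest number, 159, was on chromosome 6. When regions less than 20 kb apart were grouped, 983 stood alone, 90 groups were pairs, and 17 groups of 3 or more held 56 regions. The largest group had 6 regions within 9225 bp in the body of *SUCO* at chr9:114923918-114933142, a gene of rough endoplasmic reticulum organisation in bone. Their fold enrichments were 5.56 to 7.996, and H3K27ac of CD15M_CM overlapped 2 of them and that of the pregnant groups none.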

How the data were processed

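H3K4me3, H3K27ac and IgG were profiled in 18 libraries, 2 gilts per group. Per the labels and the methods of the study, the authors mapped reads to Sscrofa11.1 with BWA 0.7.17-r1188, removed duplicates and reads of mapping quality under 25 with SAMtools 1.9 and Picard 2.8.3, and ran MACS2 2.2.6 on the merged replicates of a group, with a stated extension of 3 kb. The deposited fold enrichment is the value given by the peak caller, with IgG as the control. Some regions had exactly equal values, among them the strong regions near *TMEM100* and *CDH12* (8.88 each). Whether IgG at the region itself set the background of a peak was not tested. The deposited −log10 p is that of the single peak. Its column name was unreadable, and the column was identified by its equality with a named column of the supplement. How MACS2 scaled the control is not given in the sources used here. The pooled calls hold no value per gilt, so depth could not be turned into an error.

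Peaks on chromosomes 1 to 18 and X were compared by overlap of at least 1 bp and measured to the nearest end of 28073 RefSeq genes (19484 protein-coding) without strand, in Python 3.11.15 with pandas 2.3.3, NumPy 2.4.6, SciPy 1.17.1 and Matplotlib 3.10.9. A distance of 1 bp means adjacent bases. Percentiles are ranks by fold enrichment within a list. The code for overlaps and distances was tested on simulated data: 0 of 1200 results per measure differed from a direct count. Shares have 95% Wilson intervals.

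The regions, gene lists and rules were chosen with earlier results of these data known. Named were the 20 regions of highest fold enrichment, the 5 longest, up to 4 per gene list within 3 kb of an end, the 8 of highest overlapping CD15M_CM H3K27ac and 3 on either side of the limit. Base composition and motifs were planned but not analysed here, and no sequences are shown. Some results on listed genes are not reported here.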

Additional observations from a re-analysis of the deposited data

Results flagged for a closer look

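The rule for the cyclic-only regions left out chromosome Y and the unplaced scaffolds. There, 19 of 362 CD15M_CM H3K4me3 peaks of fold enrichment 4 or more touched no pregnant H3K4me3 peak (5.25%, 95% Wilson interval 3.39 to 8.05%), of which 2 were on chromosome Y and the others on 8 scaffolds. Their median fold enrichment was 4.75 and the highest 8.59, and H3K27ac of CD15M_CM overlapped 5, that of GD15M_CM 6 and that of GD15M_LM 2. Gilts carry no Y chromosome, and how these reads came to be placed there was not tested.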

How the results depend on the processing

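The number of cyclic-only regions varied with the limits: it was 5017 with a fold enrichment minimum of 3, 66 with 6, 192 with −log10 p of at least 10 as well, 631 with a distance of over 1 kb to pregnant peaks, 1917 where pregnant peaks had to cover 50% of a region to remove it, and 654 after merging cyclic peaks under 1 kb apart. In that order of the last 5 settings, the share near a gene end was 40.9%, 45.8%, 36.5%, 52.8% and 38.1%, the share over H3K27ac of CD15M_CM 48.5%, 54.2%, 51.3%, 45.5% and 51.7%, over that of GD15M_CM 39.4%, 42.2%, 37.6%, 37.1% and 39.0%, and over that of GD15M_LM 9.09%, 23.4%, 22.5%, 20.9% and 23.7% (19.3% at a minimum of 3). The share near a gene end was 16.9% with a window of 1 kb and 43.6% with protein-coding genes only. With H3K27ac peaks of fold enrichment at least 4 the shares in CD15M_CM, GD15M_CM and GD15M_LM fell to 22.1%, 12.2% and 7.22%, and with H3K27ac over at least 50% of the region to 35.8%, 24.5% and 12.9%. In 2 settings added after seeing the data, the most significant 57010 H3K27ac peaks gave 33.7% and 23.9% for the circular muscles, and the regions over 10 kb from pregnant H3K4me3 gave 54.9%, 43.6% and 26.96%, with 37.7% near a gene end. The order CD15M_CM, GD15M_CM, GD15M_LM was the same in 12 of 12 settings, the reported one included. Of 51 alternative values 10 moved by less than the counting interval, among them all those without chromosome X, and the cause of the others was not tested beyond the change in which regions or peaks were counted.

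No paired analysis was possible because peaks were called on merged libraries of each group. For the same reason no gilt was left out. With 1 pooled value per list, the spread between gilts cannot be given. The effect of sequencing depth on faint peaks was not tested. A region just under the calling threshold in pregnant muscle counts as absent there, and 993 of the 1219 regions had a fold enrichment of only 4 to 5.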

Other observations

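Transfer RNA genes were among the genes with cyclic-only regions. Of 448 tRNA genes, 27 (6.03%) had a region within 3 kb of an end, against 2.75% of all genes, and 13 (2.90%, against 0.335%) had no pregnant H3K4me3 peak there. The genes lie close together, so that 1 region can count for several. Most of the 13 belonged to repeated units of tRNA genes on chromosome 4. One group of 3 regions at chr4:89071223-89086384 lay near *TRNAL-CAG* (6.22), *TRNAG-GCC* (6.52) and *TRNAE-CUC* (7.41), and the first of them was 460 bp from a pregnant peak. In a neighbouring unit, regions near *TRNAG-GCC* (4.45) and *TRNAE-CUC* (5.22) were 20110 and 23682 bp away from pregnant H3K4me3. None of these 5 regions was overlapped by H3K27ac of any group. Reads of low mapping quality had been removed, and how that affected these repeated genes was not tested. These genes were picked after their values were seen.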
